A study of Bos taurus with 27 samples.

Results

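The NADPH oxidases and nitric oxide synthases described here are 8 genes of bovine rumen epithelium (RE): the dual oxidases DUOX1 and DUOX2, their maturation factors DUOXA1 and DUOXA2, the nitric oxide synthases NOS2 and NOS3, and CYBA and CYBB, the 2 subunits of the membrane core of the phagocyte oxidase. They were chosen by name, as every non-control probe of the array annotated with 1 of these symbols, and each gene had 1 probe, so that 8 of 15008 probes were members. DUOXA2 was among the largest falls of the whole array between the early and middle stages, and this is why the group was examined. Its changes between stages are therefore given below as a description without a *P* value, though it is included in the counts of called genes. Its relation to DUOX2 across the cattle within a stage was tested. RNA came from the RE of 9 castrated and rumen-fistulated Japanese Black cattle fed high-grain diets throughout, each sampled at 3 fattening stages, early at 14, middle at 21 and late at 29 months of age, which gave 27 one-color arrays with 9 per stage. The paper reports that the ration also changed, with less forage relative to concentrate at the middle and late stages than at the early stage. No comparison group had another diet, so stage, age, ration and time on the diet changed together.

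Dual oxidases sit in the apical membrane of epithelial cells and release hydrogen peroxide directly to the surface, where peroxidases can use it against microbes. An oxidase leaves the endoplasmic reticulum with the help of a maturation factor. DUOXA1 is paired with DUOX1 and DUOXA2 with DUOX2, and each oxidase gene lies next to the gene of its factor. Nitric oxide synthases make nitric oxide from arginine with tetrahydrobiopterin as a cofactor. NOS2 is the inducible enzyme of inflamed epithelium and phagocytes, NOS3 the enzyme of endothelium. CYBB is the catalytic chain of the phagocyte oxidase and CYBA its partner, which also serves other NADPH oxidases.

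The probes are short designed sequences, and each value below is the brightness of 1 of them. The 5 shown are those of the DUOX cluster, where DUOX2, DUOXA1 and DUOXA2 differed between stages and DUOX1 did not pass the test, and of NOS2, whose level was not measurable on most arrays. They are written 5′ to 3′ in the sense of the transcript, and no base is singled out in capitals. The positions are those of the array design on UMD_3.1 (bosTau6).
DUOX1 probe: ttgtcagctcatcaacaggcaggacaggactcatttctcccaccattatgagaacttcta
DUOXA1 probe: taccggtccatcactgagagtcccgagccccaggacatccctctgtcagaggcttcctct
DUOXA2 probe: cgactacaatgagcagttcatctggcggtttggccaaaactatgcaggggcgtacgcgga
DUOX2 probe: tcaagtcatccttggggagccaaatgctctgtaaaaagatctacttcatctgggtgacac
NOS2 probe: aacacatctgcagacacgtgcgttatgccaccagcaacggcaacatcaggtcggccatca

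The 4 DUOX probes lay in a row on chromosome 10. The DUOX1 probe was at chr10:65492594-65492653 on the minus strand, and the DUOXA1 probe began 42924 bases further on at chr10:65535578-65535637 on the plus strand. The DUOXA2 probe followed after 2533 bases at chr10:65538171-65538230 on the minus strand, and the DUOX2 probe after another 19561 bases at chr10:65557792-65557993 on the plus strand. Each oxidase and its factor thus had probes on opposite strands, pointing away from each other. The DUOX2 probe has 60 bases but spans 202 in the genome, so that it crosses an intron, and the NOS2 probe spans 1001 at chr19:19782086-19783086 on the minus strand. Every DUOX and NOS2 probe had at least 1 reading frame without a stop codon in the sense direction. The remaining probes were at chr4:114394085-114394144 (plus strand) for NOS3, chr18:13931159-13931218 (minus) for CYBA and chrX:111079540-111079599 (minus) for CYBB.

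Levels are given as the log2 processed signal minus the median log2 signal of the same array, so that 0 is the median probe and 1 unit is a doubling. They can be compared between stages for 1 probe, not between probes. The middle-stage arrays were dimmer than the others, with an array median of 8.22–28.7 against 35.2–48.6 in the early and 32.2–47.0 in the late stage. A probe is called measurable on an array below where the scanner software marked it well above background, and 48.8–71.6% of probes were measurable on the middle arrays against 68.9–78.2% and 68.5–73.8%. The slides also followed the stages in part. Early arrays of animals 1–8 were on slide 1, the early array of animal 9 and the middle arrays of animals 1–7 on slide 2, the other middle arrays on slide 3, and the late arrays on slides 4 and 5, so that slide and stage cannot be told apart for the late stage. In limma with the animal as a block, 66.5% of all probes differed between the middle and early stages (the first period), 71.5% between the late and middle stages (the second period) and 20% between the late and early stages (the total period) at an adjusted *P* below 0.05. The balance of these calls depended on the scaling. In the first period 6796 of 9984 called probes were higher, against 3677 of 7169 after quantile normalization and 2253 of 10717 after cyclic loess, and in the second 4006 of 10727 were higher, against 4060 of 7920 and 8874 of 11426.

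Markers of stratified epithelium were bright in every stage, with 10 of 13 measurable on all 27 arrays, among them the keratins KRT5, KRT6A, KRT14 and KRT15, and KRT4 at background on all. The protocol text attached to the samples names neutrophils and liver as the RNA source, which differs from the labeled tissue. ALB, CYP2E1 and FGA of the liver markers, and ELANE and CAMP of the neutrophil markers, were measurable on 0 of 27 arrays. Other genes of these 2 lists were measurable. Of 10 liver markers, APOA2 was measurable on all 27 arrays, APOA1 on 26, TTR on 23 and AHSG on 18. Of 11 neutrophil markers, S100A8 and S100A12, calprotectin family genes which stratified epithelium also expresses, were bright on all 27, LTF was measurable on 24, CSF3R on 22 and CXCR2 on 19. The part of these cells in the results was not tested.

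Of the 8 genes, 4 differed between the middle and early stages, 3 lower and 1 higher, which is 50% of the members against 66.5% of all probes, with 21.2% of all probes called lower and 45.3% called higher. The 3 lower were DUOX2, DUOXA1 and DUOXA2, and the 1 higher was NOS2, which was not measurable at either stage. Without DUOXA2, whose fall chose the group, and NOS2, 2 of 6 genes were called. In the second period the same 4 genes were called, each in the opposite direction, against 26.7% of all probes called higher and 44.8% lower. In the total period limma called 0 of 8 genes, against 20% of all probes, with 1 gene (DUOXA1) at an unadjusted *P* below 0.05, and the methods' t-test called 1. The median change of the 8 genes was −0.10 in the first period and 0.05 in the second on the log2 scale, beside 0.33 and −0.28 for all probes and 0.01 and 0.13 for the 10165 probes that were measurable in all 9 cattle at 1 stage or more.

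**Figure D1:**
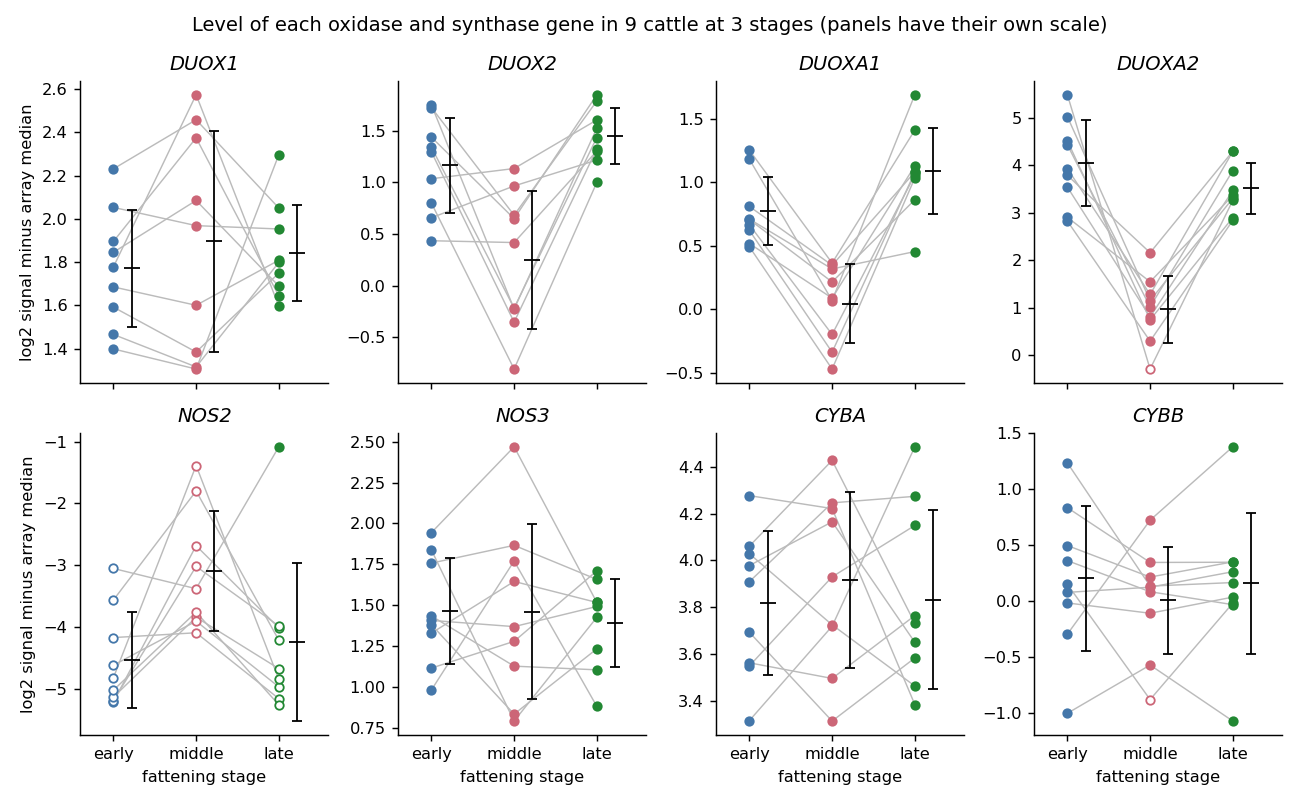
Level of each of the 8 genes (y axis, log2 processed signal minus the array median) by stage (x axis). Each point is 1 array, gray lines join the 3 arrays of an animal, open points were not measurable, and bars give the mean ± SD of 9 cattle. DUOXA2 fell from 4.05 to 0.97 and returned to 3.51, and DUOX2 and DUOXA1 followed with smaller changes. The middle values of DUOX2 overlapped with those of both other stages, and DUOX1, NOS3, CYBA and CYBB also had overlapping stages.

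DUOXA2, the maturation factor of DUOX2, had the widest range of levels among the detected members. At the early stage its log2 level was 2.82 at the lowest, 3.93 in the median and 5.48 at the highest of 9 cattle. At the middle stage the corresponding levels were −0.29, 1.02 and 2.16, and at the late stage 2.84, 3.36 and 4.29. No middle-stage value reached the lowest value of either other stage, while the early and late stages overlapped. In processed signal the middle-stage medians correspond to 43.7 units against 598 and 418, and the probe stayed measurable on 8 of the 9 middle arrays, all except that of animal 9.

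The mean level of DUOXA2 was 4.05 ± 0.90 (SD, *n* = 9) early, 0.97 ± 0.71 in the middle and 3.51 ± 0.54 late. Its change in the first period was −3.08 ± 0.32 (SE) on the log2 scale, 8.44-fold lower, and it was lower in 9 of 9 cattle. The falls ran from −1.36 in animal 1 to −5.77 in animal 9, which had the highest early value and the lowest middle value. Only 2 of 15008 probes had a larger fall. In the second period DUOXA2 was 2.54 ± 0.32 higher, a 5.82-fold difference, in 9 of 9 cattle with a range of 1.82 to 3.55. Late minus early it differed by −0.54 ± 0.32, and here the cattle disagreed, 4 being higher and 5 lower. The comparisons share the middle arrays that chose the gene, so the return is a description as well.

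DUOX2, the oxidase that DUOXA2 serves, averaged 1.16 ± 0.46 (SD, *n* = 9) early, 0.25 ± 0.67 in the middle and 1.45 ± 0.27 late. Its lowest, median and highest levels were 0.43, 1.29 and 1.75 early, −0.81, 0.42 and 1.13 in the middle and 1.00, 1.43 and 1.85 late. The middle values overlapped with those of both other stages at their upper end. DUOX2 was downregulated in the first period, when its level fell by 0.91 on the log2 scale (SE 0.20, adjusted *P* = 0.000691), which is 1.89-fold lower. The fall was present in 7 of 9 cattle. Animals 1 and 3 had slightly higher middle values (by 0.31 and 0.10), animal 4 was nearly level at −0.02, and the remaining 6 changed by −1.98 to −0.79. In the second period DUOX2 was upregulated in 9 of 9 cattle by 1.20 (SE 0.20, adjusted *P* = 3.8e-05), 2.30-fold, with changes of 0.25 to 1.81. Late and early levels differed by 0.29 (SE 0.20, adjusted *P* = 0.36, 95% interval −0.14 to 0.71), higher in 8 of 9 cattle.

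DUOXA1, the maturation factor of DUOX1, averaged 0.77 ± 0.27 early, 0.05 ± 0.31 in the middle and 1.09 ± 0.34 late (SD, *n* = 9). Its lowest, median and highest levels were 0.49, 0.71 and 1.25, then −0.47, 0.09 and 0.36, then 0.45, 1.08 and 1.69. The highest middle value lay below the lowest value of both other stages, so that the middle stage stood apart as it did for DUOXA2, over a narrower range. DUOXA1 fell by 0.73 in the first period (SE 0.13, adjusted *P* = 8.5e-05), 1.66-fold lower, in 9 of 9 cattle with changes of −1.11 to −0.39. It was upregulated by 1.04 in the second period (SE 0.13, adjusted *P* = 1.12e-06), 2.06-fold, again in 9 of 9 cattle. In the total period it was 0.32 higher (SE 0.13, adjusted *P* = 0.0914, 95% interval 0.05 to 0.58), in 8 of 9 cattle, and this difference passed the threshold in the methods' t-test (adjusted *P* = 0.0312), in a fit of the 2 stages alone (0.0303) and without animal 2 (0.0333). Over all alternatives the adjusted *P* of this difference ran from 0.0303 to 0.688.

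DUOX1, the other dual oxidase, did not follow its factor. It averaged 1.77 ± 0.27 early, 1.90 ± 0.51 in the middle and 1.84 ± 0.22 late (SD, *n* = 9), and the lowest, median and highest middle values of 1.31, 1.97 and 2.57 covered the whole early range of 1.40 to 2.23. The stages overlapped fully, and the spread was widest at the middle stage. The change was 0.12 in the first period (95% interval −0.20 to 0.45, adjusted *P* = 0.492) and −0.05 in the second (−0.38 to 0.28, adjusted *P* = 0.769). These intervals leave out a change of the size seen for DUOX2 or DUOXA1, but do not show that the level was constant. After normexp background correction DUOX1 changed by −0.14 (adjusted *P* = 0.318) and then rose by 0.30 (adjusted *P* = 0.0392), the 1 alternative in which it passed the threshold.

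**Figure D2:**
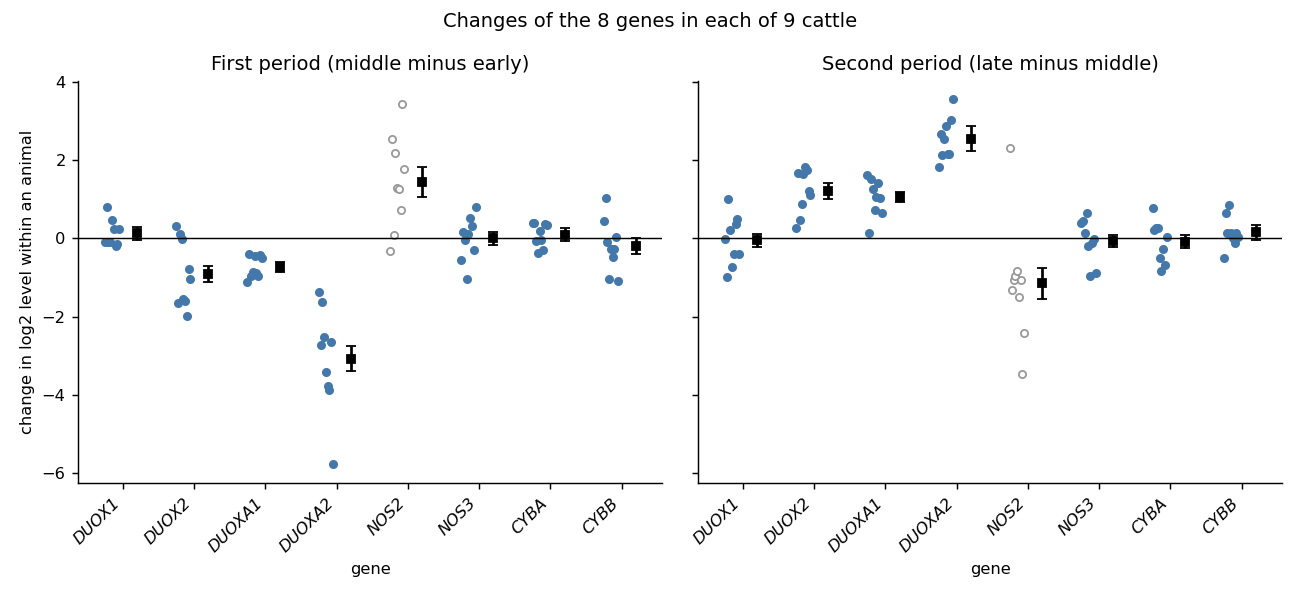
Change in log2 level (y axis) of each gene (x axis) from early to middle stage on the left and from middle to late stage on the right. Each circle is 1 of 9 cattle, squares give the fitted change ± SE, and the open circles of NOS2 mark a gene that was not measurable. All 9 cattle lie below 0 for DUOXA1 and DUOXA2 on the left and above 0 for DUOX2, DUOXA1 and DUOXA2 on the right.

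The changes were compared between genes within the same cattle, by an exact two-sided sign-flip test over the 9 animals with adjustment over 6 tests; with 9 animals the smallest *P* it can give is 0.00391. In the first period the change of DUOXA1 minus that of DUOX1 was −0.85 ± 0.27 (SD, *n* = 9) and below 0 in 9 of 9 cattle (exact *P* = 0.00391, adjusted 0.0117). In the second it was 1.096 ± 0.386 and above 0 in 9 of 9 (exact *P* = 0.00391, adjusted 0.0117). All 6 tests used the median-centered values alone. After normexp the changes of DUOXA1 and DUOX1 lay nearer each other, at −0.35 and −0.14, then 0.54 and 0.30. After cyclic loess they lay farther apart, at −1.09 and 0.11, then 1.39 and −0.13. The change of DUOX2 minus that of DUOX1 was −1.04 ± 1.07 in the first period, below 0 in 6 of 9 cattle, which missed the threshold after adjustment (exact *P* = 0.0352, adjusted 0.0528). In the second it was 1.25 ± 1.06, above 0 in 8 of 9 cattle (exact *P* = 0.0117, adjusted 0.0234). The changes of DUOX2 and DUOXA1 differed by −0.19 ± 1.02 (exact *P* = 0.574) and 0.16 ± 0.94 (exact *P* = 0.617). For DUOXA2, as a description, the change minus that of DUOX2 was −2.16 ± 1.03 and minus that of DUOXA1 −2.35 ± 1.47 in the first period, below 0 in 9 of 9 cattle for both, and 1.34 ± 0.68 and 1.50 ± 0.93 in the second, above 0 in 9 of 9.

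Within a stage, each oxidase was compared with its own factor across the 9 cattle, 6 relations in all, with exact permutation tests over all pairings. DUOX1 and DUOXA1 were closely related at the early stage, with Pearson's *r* = 0.95 (exact *P* = 5.51e-06, adjusted 3.31e-05) and Spearman's rho = 0.98 (exact *P* = 4.96e-05, adjusted 0.000298), and *r* = 0.98 without the 2 animals farthest from the median of DUOXA1. At the middle stage *r* was 0.86 (exact *P* = 0.00387, adjusted 0.0116), rho 0.85 (exact *P* = 0.00607, adjusted 0.0182) and *r* without 2 animals 0.80. At the late stage *r* was 0.50 (exact *P* = 0.176, adjusted 0.211), rho 0.45 (exact *P* = 0.23, adjusted 0.23) and *r* without 2 animals 0.34. The cattle with more DUOX1 thus had more DUOXA1 at the early and middle stages, while the whole set of DUOXA1 values lay lower at the middle stage. Array brightness was correlated with both genes at the middle stage (*r* = 0.59 with DUOXA1 and 0.60 with DUOX1) and less at the early stage (0.07 and 0.29), and its part in the relation was not tested.

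For DUOX2 and DUOXA2 the relation at the early stage was *r* = 0.80 (exact *P* = 0.0113, adjusted 0.0225) with rho = 0.78 (exact *P* = 0.0172, adjusted 0.0344), and *r* = 0.62 without the 2 animals farthest from the median of DUOXA2. It was *r* = 0.30 at the middle stage (exact *P* = 0.429, adjusted 0.429) with rho = 0.47 (exact *P* = 0.213, adjusted 0.23), and *r* = 0.43 without 2 animals. At the late stage it was *r* = 0.63 (exact *P* = 0.0718, adjusted 0.108) with rho = 0.53 (exact *P* = 0.147, adjusted 0.221), and *r* = 0.35 without 2 animals. Array brightness had *r* = 0.55 with DUOXA2 and 0.12 with DUOX2 at the early, and 0.26 and −0.58 at the middle stage, and its part in the relation was not tested. Whether the relation differed between stages was not tested.

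**Figure D3:**
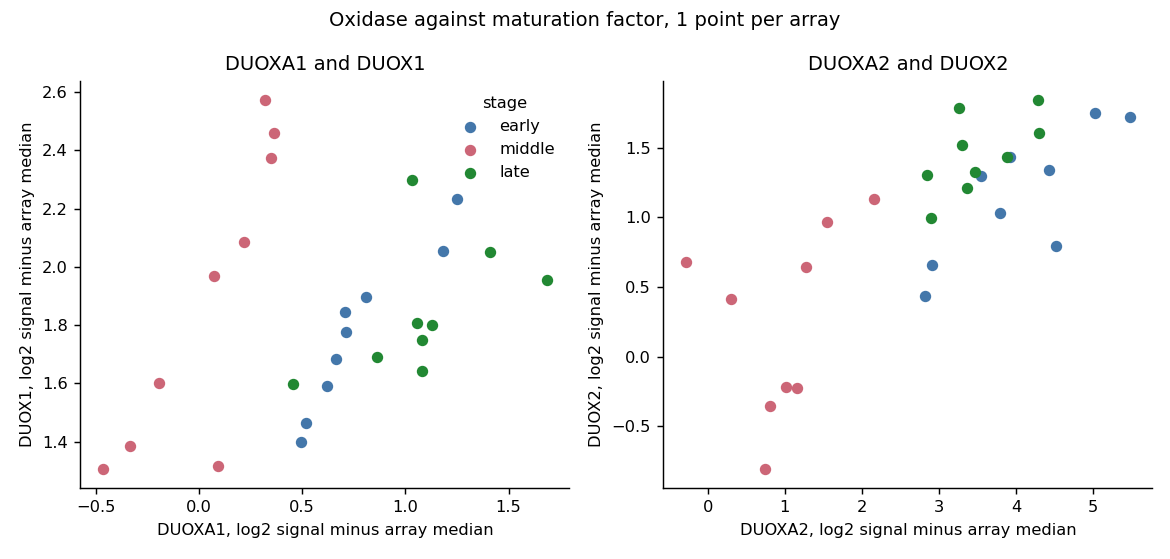
Level of each oxidase (y axis) against its maturation factor (x axis), both as log2 processed signal minus the array median, with 1 point per array colored by stage. On the left the middle-stage points are displaced to lower DUOXA1 at the same DUOX1 levels (*r* = 0.95 within the early and 0.86 within the middle stage), and on the right the middle-stage points lie at lower DUOXA2.

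Other processing left the direction of DUOX2, DUOXA1 and DUOXA2 as it was in both periods. For DUOXA2, chosen by its fall on the same arrays, this is a description. Normexp background correction gave the smallest changes in the first period, −0.38 for DUOX2, −0.35 for DUOXA1 and −2.27 for DUOXA2, with DUOX2 and DUOXA1 still past the threshold. With slide as a fixed block beside the animal, the changes were −1.11, −0.71 and −5.49, and neither DUOX2 (adjusted *P* = 0.464) nor DUOXA1 (0.423) passed the threshold. Slide 2 alone gave −1.59, −0.69 and −4.38, again without a call for DUOX2 (adjusted *P* = 0.21) or DUOXA1 (0.383). It is the only slide with both stages, and it sets 1 early array, that of animal 9 with the highest early DUOXA2 level, against the middle arrays of other cattle, so these values do not bear on the stability of the direction. On the first scan day alone, which holds slides 1 and 2, the changes were −0.91, −0.80 and −2.75.

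**Figure D4:**
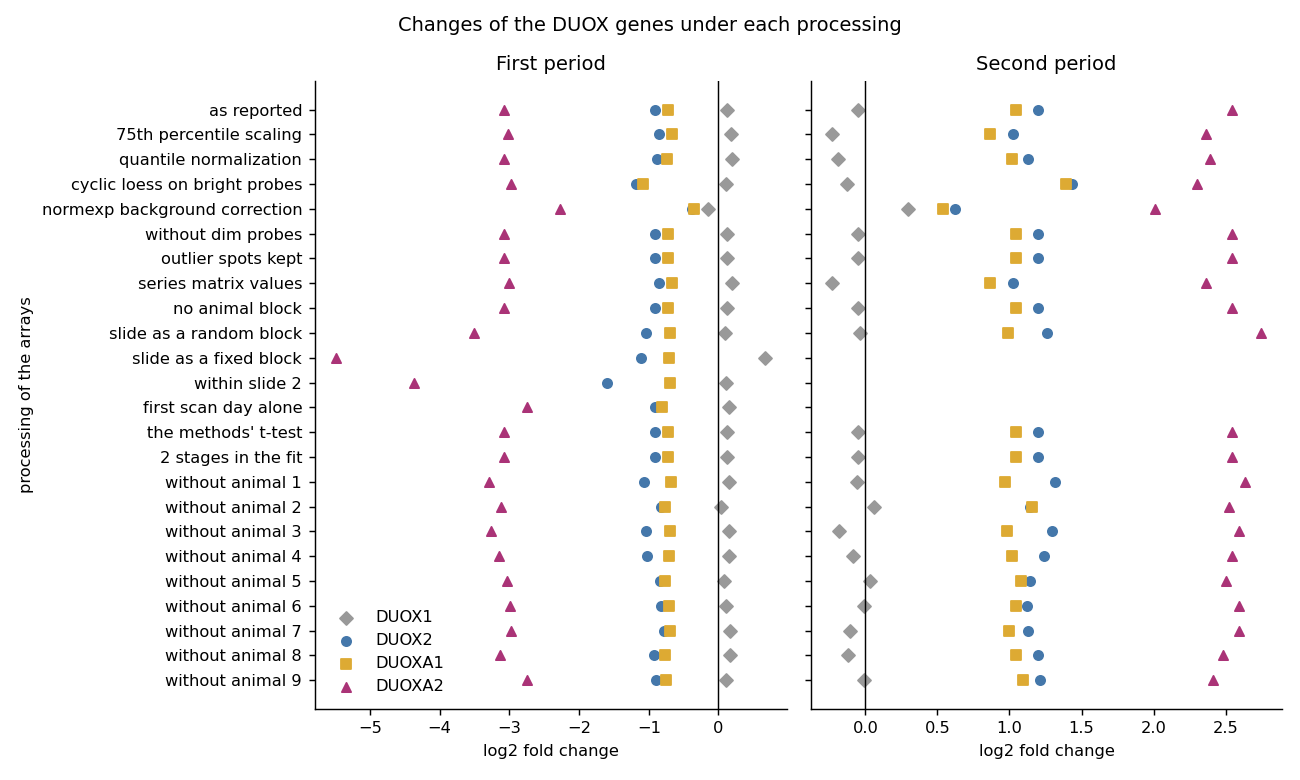
Log2 fold change (x axis) of the 4 DUOX cluster genes in the first and second periods under each processing (y axis), 1 symbol per gene. DUOX2, DUOXA1 and DUOXA2 stay below 0 on the left and above 0 on the right, and DUOX1 runs from −0.14 to 0.67 in the first period and from −0.23 to 0.30 in the second. Fits by slide or scan day exist for the first period.

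Genes next to the cluster did not move as 1 block. In the gene order of the ARS-UCD2.0 annotation the cluster is preceded by GATM, SLC28A2 and SHF and followed by SORD, LOC613752 and FERMT2, and SHF and LOC613752 had no probe under these names. GATM, an enzyme of creatine synthesis that uses arginine, changed by −1.50 (SE 0.21, adjusted *P* = 8.81e-06) and then 1.43 (adjusted *P* = 7.48e-06). SORD, sorbitol dehydrogenase, changed by −0.09 (adjusted *P* = 0.516) and rose by 0.61 (adjusted *P* = 0.000163). FERMT2, an integrin adaptor, rose by 0.60 (adjusted *P* = 0.000889) in the first period, and SLC28A2 was measurable on 0 of 27 arrays. These neighbors were chosen by position alone.

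**Figure D5:**
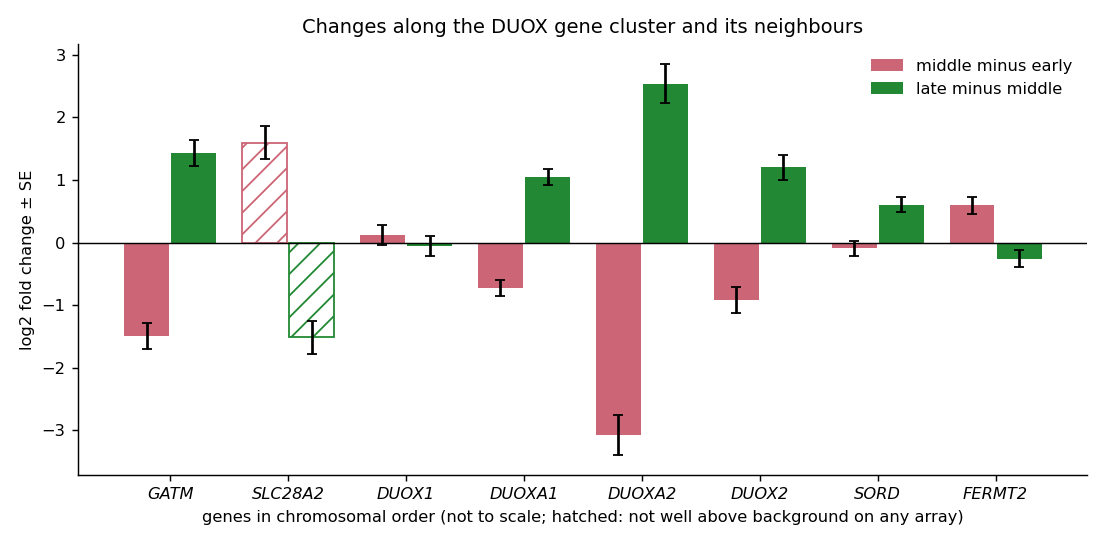
Log2 fold change ± SE from limma (y axis) of the genes with a probe along the DUOX cluster in chromosomal order (x axis, not to scale), for middle minus early and late minus middle. DUOX1 lies at 0.12 and −0.05 beside DUOXA1 at −0.73 and 1.04, and the hatched bars of SLC28A2 mark a gene measurable on 0 of 27 arrays.

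NOS2, the inducible synthase, was measurable on 1 of 27 arrays, the late array of animal 1. Its processed signal was 0.995 to 4.24 early, 0.978 to 6.67 in the middle and 1.02 to 16.7 late. The model called it higher in the first period and lower in the second, but the probe was not measurable on any early or middle array, so no fold is given. Its direction in the first period also turned under cyclic loess and with slide as a fixed block. The probe begins at base 673 of its transcript, while those of DUOX1, DUOX2 and NOS3 begin at bases 4601, 4216 and 3694. Those of DUOXA2 and CYBA begin at bases 616 and 595 and were measurable on 26 and 27 arrays. The part of probe position in the dimness of NOS2 was not tested.

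NOS3, the endothelial synthase, was measurable on all 27 arrays. It averaged 1.46 ± 0.32 early, 1.46 ± 0.54 in the middle and 1.39 ± 0.27 late (SD, *n* = 9), and the middle range of 0.79 to 2.47 covered the early and late ranges, so that the stages overlapped fully. The change was 0.00 in the first period (95% interval −0.35 to 0.34, adjusted *P* = 0.984), −0.07 in the second (−0.41 to 0.28, adjusted *P* = 0.72) and −0.07 in the total period (−0.42 to 0.27, adjusted *P* = 0.825). Of 12 endothelial markers, 11 were measurable in all 9 cattle at 1 stage or more, and 6 were called higher and 1 lower in the first period, beside 45.3% and 21.2% of all probes. Of the 6 higher, 4 were measurable on all 9 middle arrays. The mean level over the list was 0.75–1.35 early, 0.69–1.84 in the middle and 0.57–1.07 late. In bulk RNA, fewer cells of a type and less RNA per cell cannot be told apart.

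CYBA and CYBB, the membrane core of the phagocyte oxidase, did not pass the threshold in any period. CYBA was 3.82 ± 0.31, 3.92 ± 0.38 and 3.83 ± 0.38 from early to late, and CYBB 0.21 ± 0.65, 0.01 ± 0.48 and 0.16 ± 0.63 (SD, *n* = 9). The changes of CYBA were 0.10 (95% interval −0.26 to 0.45, adjusted *P* = 0.625) and −0.08 (−0.44 to 0.27, adjusted *P* = 0.665), and those of CYBB −0.20 (−0.62 to 0.22, adjusted *P* = 0.392) and 0.15 (−0.27 to 0.57, adjusted *P* = 0.51). Under cyclic loess CYBB passed the threshold in both periods, at −0.72 (adjusted *P* = 0.00898) and 0.70 (adjusted *P* = 0.00963), and under no other alternative, where the adjusted *P* reached 0.96 and 0.908. CYBB was measurable on 26 arrays, the exception being the middle array of animal 4. Of 13 phagocyte markers, 1 was called higher and 1 lower in the first period, beside 45.3% and 21.2% of all probes. Named after their values were seen, the higher was ITGAM, measurable on 0 of 27 arrays, and the lower LYZ1, a lysozyme. Their mean level was 0.94–2.46 early, 1.15–1.87 in the middle and 1.02–2.06 late. TYROBP, CSF1R and AIF1 were bright on all 27 arrays.

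Among the markers of stratified epithelium, 3 of 13 were called higher and 6 lower in the first period, beside 45.3% and 21.2% of all probes, and 2 of the 3 higher were measurable on all 9 middle arrays. IVL, a component of the cornified envelope, changed by −1.99 and then 2.57, and SPINK5, a protease inhibitor of the upper layers, by −1.83 and 2.67, while KRTDAP, a gene of differentiating keratinocytes, was −0.82 and then 0.66 without a call. Of the basal markers, KRT14 fell by 1.12 (adjusted *P* = 6.98e-06) and KRT5 by 0.56 (adjusted *P* = 0.0289) in the first period, and TP63 at 0.12 and KRT15 at 0.00 were not called. IVL and SPINK5 were thus lower at the middle stage, KRTDAP was lower without a call, and the basal markers were mixed. DSG1, a desmoglein of the same list, did not follow IVL and SPINK5. It changed by 0.08 in the first period (adjusted *P* = 0.932) and 0.41 in the second (adjusted *P* = 0.649). The measurable rises of the list were DSC3 by 0.53 (adjusted *P* = 0.00065) and DSG3 by 0.45 (adjusted *P* = 0.0014). KRT6A fell by 1.28 (adjusted *P* = 0.00094) and DSC2 by 1.05 (adjusted *P* = 0.00051). The mean level of the list was 4.80–5.73 early, 3.80–5.88 in the middle and 4.99–5.65 late. These genes moved in the same direction as DUOX2, DUOXA1 and DUOXA2 in part, and their part in the changes of the DUOX genes was not tested.

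The probes most like each member over the 27 arrays, among 10155 probes measurable on at least 18 arrays, differed between members. For DUOXA2 they were GRHL3 (*r* = 0.93), a transcription factor of epidermal barrier formation, IL36G (*r* = 0.91), an epithelial cytokine, and TGM1 (*r* = 0.90), the transglutaminase of cornified cells. These 3 changed by −1.99, −2.48 and −1.54 in the first period and by 1.82, 2.89 and 1.80 in the second. For DUOX2 they were FLT1 (*r* = 0.88), LY6G6C (0.87) and KRT80 (0.86), and for DUOXA1 GAPDH (0.90), TMEM18 (0.89) and CCDC101 (0.89). GAPDH, a glycolytic enzyme often used as a reference gene, changed by −1.29 and 1.68. DUOX1 had no probe above 0.71 (VSNL1), followed by S100A11 and GALNT6. NOS3 was most like PKNOX1 (0.82), FNDC3B and MSRB3, CYBA most like SERPINB1 (0.69), SATB1 and TSC22D3, and CYBB most like FGL2 (0.89), LOC613822 and SRGN. FGL2 and SRGN are known from leukocytes. These correlations pool the stages and the animals, share the brightness of each array and are descriptions without a test. Between members the highest was 0.77, for DUOX2 and DUOXA2, and DUOX1 with DUOX2 was −0.40.

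The partner genes below come from lists of the same pathways, and for the 9 that the naming rule gave in the first period the call was lost with slide as a fixed block and on slide 2 alone. The largest shifts with the fixed block were those of ARG1 (from −1.40 to −0.15), JAK1 (from −3.31 to −1.13) and GUCY1B3 (from 1.87 to 0.95), with the same direction in each.

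The other NADPH oxidase genes were 10 genes on the array, of which 5 were called higher and 1 lower in the first period (50% and 10%, beside 45.3% and 21.2% of all probes), with a median change of 0.75 against 0.33 for all probes. Of the 5 higher, 1 was measurable on all 9 middle arrays, NOXA1, the activator of the NOX1 oxidase, which rose by 0.88 (adjusted *P* = 0.00042) and then fell by 1.46 (adjusted *P* = 1.5e-06) to a late level 0.59 below the early one (adjusted *P* = 0.03). The total-period difference of NOXA1 lost the threshold without any 1 of 6 of the cattle. NOX1, the largest rise by the rule, was measurable on 6 of 9 middle arrays, and its rise of 1.03 turned to −0.21 under cyclic loess. NOX3, NOX4 and NOX5 were measurable on 0 of 27 arrays. NCF1, the organizer subunit of the phagocyte oxidase, changed by 0.05 in the first period and was upregulated by 0.80 in the second (adjusted *P* = 0.000501) and 0.86 in the total period (adjusted *P* = 0.00203). The GTPase RAC1 fell by 0.34 (adjusted *P* = 0.025), and this call was lost in 10 of 23 alternatives, among them the 75th percentile scaling and the methods' t-test.

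Of 13 partners of the synthases and enzymes of their cofactor, 6 were called higher and 4 lower in the first period (median 0.05, beside 45.3% higher and 21.2% lower and a median of 0.33 for all probes). In the second 5 were higher and 3 lower (median 0.08), beside 26.7% higher and 44.8% lower and a median of −0.28 for all probes. GCH1, the first and limiting enzyme of tetrahydrobiopterin synthesis, had the largest fall. It averaged 2.67 ± 0.42 early, 0.68 ± 0.92 in the middle and 2.29 ± 0.22 late (SD, *n* = 9), a change of −1.99 (adjusted *P* = 9.3e-06) and then 1.61 (adjusted *P* = 4.6e-05), and it was measurable on 7 of 9 middle arrays. Chosen after their values were seen, the next enzyme PTS changed by −0.64 (adjusted *P* = 0.0021), the recycling enzyme QDPR by −1.52 (adjusted *P* = 1.6e-07) and SPR, the last step of synthesis, by 0.43 (adjusted *P* = 0.0016). CALM3, a calmodulin, was the largest rise of the list in the first period at 0.80 (adjusted *P* = 0.0038). The chaperone HSP90AA1 fell by 0.33 in the second period (adjusted *P* = 0.0064), which turned to 0.45 under normexp.

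Of 10 genes of arginine supply and removal, 5 were called higher and 1 lower in the first period (median 0.46), near the 45.3% and 21.2% and the median of 0.33 for all probes, and of the 5 higher 1 was measurable on all middle arrays, ASS1, which makes the precursor of arginine. ASS1 changed by 0.42 (adjusted *P* = 0.013). ARG1, the arginase that competes with the synthases for arginine, averaged 6.63 ± 0.58 early, 5.23 ± 1.19 in the middle and 7.71 ± 0.35 late (SD, *n* = 9). It fell by 1.40 (adjusted *P* = 0.00035), rose by 2.48 (adjusted *P* = 5.5e-07) and ended 1.08 higher than at the early stage (adjusted *P* = 0.012). DDAH2, which degrades an inhibitor of the synthases, was 0.49 higher in the first period (adjusted *P* = 0.072), fell by 1.80 in the second (adjusted *P* = 2.3e-06) and by 1.31 in the total period (adjusted *P* = 0.00066).

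On the receiving side of nitric oxide, 6 of 7 genes were called higher in the first period (median 1.40, beside 45.3% and 0.33 for all probes). In the second 6 were lower (median −1.54, beside 44.8% and −0.28 for all probes). Of the 6 called higher, only 2 were measurable on all 9 middle arrays. These were GUCY1B3, a subunit of the soluble guanylate cyclase, which rose by 1.87 (adjusted *P* = 1.8e-06) from −0.69 ± 0.41 to 1.19 ± 0.59 and fell by 2.04 (adjusted *P* = 2.9e-07) to −0.85 ± 0.39 (SD, *n* = 9), and PRKG1, a kinase activated by cyclic GMP, which rose by 1.40 (adjusted *P* = 9.9e-06) and fell by 0.75 (adjusted *P* = 0.0021). PRKG1 remained 0.65 higher late than early (adjusted *P* = 0.025). Both genes are also known from smooth muscle, and of 8 smooth muscle markers 5 were called higher and 0 lower in the first period, beside 45.3% and 21.2% of all probes. Of these 5, 3 were measurable on all 9 middle arrays, and the list had a mean level over the list of 0.025 to 2.00 early, 0.19 to 2.74 in the middle and −0.10 to 0.90 late. The part of smooth muscle in these 2 changes was not tested.

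Of 4 peroxidases that can use hydrogen peroxide, 1 was called higher in the first period, beside 45.3% of all probes. In the second 2 were called lower, beside 44.8% of all probes. LPO, the lactoperoxidase of secretions, was 2.64 ± 0.80, 3.12 ± 0.46 and 3.67 ± 0.46 across the stages (SD, *n* = 9) and 1.03 higher late than early (adjusted *P* = 0.015). MPO was called higher in the first period and lower in the second, and it was measurable on 1 of 9 early, 1 of 9 middle and 0 of 9 late arrays.

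Receptors, kinases and transcription factors known to induce NOS2 or DUOX2 fell more often than they rose in the first period. Of 26 genes 12 were lower and 4 higher, beside 21.2% lower and 45.3% higher of all probes. In the second period 13 were higher and 4 lower, beside 26.7% higher and 44.8% lower of all probes. The list held few dim genes, with 23 of 26 detected. In the fit without dim probes, 3195 of 6363 called probes were higher in the first and 3983 of 6883 in the second period. Of the 12 lower genes, 11 had been measurable on all 9 early arrays. The median change of the list was −0.51 and then 0.49. JAK1, a kinase of interferon and interleukin receptors, changed by −3.31 (adjusted *P* = 1.1e-06) and 3.52 (adjusted *P* = 2.3e-07) and was measurable on 6 of 9 middle arrays. IL17RA, a receptor of interleukin-17, was measurable on 0 of 9 middle arrays and was 1.46 higher late than early (adjusted *P* = 0.00017). IL13RA1, a receptor of interleukin-13, rose by 0.92 (adjusted *P* = 1.3e-06). Chosen after their values were seen, both chains of the interferon gamma receptor changed in the same direction as DUOX2, IFNGR1 by −1.47 (adjusted *P* = 3e-06) and 1.42 (adjusted *P* = 2.2e-06) and IFNGR2 by −1.11 (adjusted *P* = 6.5e-06) and 1.13 (adjusted *P* = 2.8e-06), as did IL22RA1, a receptor chain of interleukin-22, by −1.09 (adjusted *P* = 0.00097) and 1.23 (adjusted *P* = 0.00026). The cytokine genes IFNG and TNF were dim, measurable on 7 and 5 early, 0 and 0 middle and 4 and 4 late arrays, and their changes in the first period were not called (adjusted *P* = 0.3 and 0.0793).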

How the data were processed

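RNA from the RE of 9 cattle at 3 stages was hybridized to 27 one-color arrays. The authors deposited scanner output of Agilent Feature Extraction (version 11.0.1.1 per the file headers, 9.5 per the submitters' processing notes), and the intensity used here is its processed signal, with local background removed and no log taken. Scores of 0 or 1 in the same deposited output mark spots as well above background or as outliers. The authors also deposited log2 values in a series matrix, which match a 75th percentile scaling of the same signal and served as an alternative.

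Log2 signals were centered on the median of the non-control spots of the array, outlier spots were left missing and spots of a probe were averaged. limma 3.58.1 in R 4.3.3 fitted 15008 probes with stage means and animal effects, and Benjamini-Hochberg adjustment ran over all probes with a threshold of 0.05. The same cattle pair the arrays. Deviations from stage means correlated at 0.158 on average within an animal (24 of 27 pairs above 0) and at −0.02 between animals. Array number, 9 per stage, limits the precision. The members and all gene lists were chosen with earlier results of these data known. Named genes are the 8 members, for each the 3 probes most correlated with it over 27 arrays, and of each pathway list the detected gene with the largest called rise and fall per comparison. Some genes that this rule names are not reported here. A gene counted as detected if measurable in all 9 cattle at 1 stage or more, and candidates for correlation had to be measurable on at least 18 arrays. Of the 8 members, 6 were matched to the gene table of ARS-UCD2.0 by accession and 8 by symbol. Alternatives changed the scaling, normalization, background correction, dim-probe filter, outlier spots, block, slide, scan day (added after seeing the data), test, stages in the fit and cattle.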

Additional observations from a re-analysis of the deposited data

Results flagged for a closer look

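The late array of animal 1 stood apart for NOS2, at a log2 level of −1.09 against −3.99 for the next highest of the 9 late arrays, a gap of 0.694 of the whole range of the stage. The other 8 late values were not above background, so the gap and its share of the range depend on signal at the floor. It was also the 1 array on which the NOS2 probe was well above background. Of 24 combinations of gene and stage examined, this was the 1 with such a distant sample, and chance gives about 1 in 20.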

How the results depend on the processing

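Over 23 alternatives of the first period and 20 of the others, DUOX2, DUOXA1 and DUOXA2 kept their direction. The only slide that holds both stages has 1 early array, so the fits by slide do not bear on this. For DUOXA2, whose fall on these arrays chose the group, the kept direction is a description and no support. Of 441 values of the members other than NOS2, 391 were counted as unchanged. This meant the same direction and side of the threshold, or for DUOXA2 the same direction and a shift smaller than the SD of its change. Of 8 members, 4 were called in the first and second periods and 0 in the total period also without the replicate block, which changed no other member call and gave 9698, 10484 and 2729 called probes. The members called in the first period were 1 when slide was a fixed block and 1 in slide 2 alone, in both DUOXA2, whose fall chose the group, and in the total period 1 with the methods' t-test and 1 with 2 stages in the fit. Without 1 animal they were 4 to 4, 4 to 4 and 0 to 1. All probes called in the first period were 6363 without dim probes, 1255 when slide was a fixed block and 7 in slide 2 alone (where the fewer arrays and the single early array limit the test, with 3274 at an unadjusted *P* below 0.05), in the second 6883 without dim probes, and in the total period 1195 with normexp, 384 with slide as a random block and 4760 with 2 stages in the fit.

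Some values changed sign, most of them near 0. Called changes that did so were those of HSP90AA1 (−0.33 in the second period) and NOX1 (1.03 in the first). Under normexp, DUOX1 was −0.14 and 0.30 (the latter called), NOS3 0.21 in the second period, CYBA −0.40 and 0.55, CYBB 0.0048 in the first and 0.051 in the total period, and HSP90AA1 0.45. Under 75th percentile scaling and the series matrix values, DUOX1 was −0.046 and −0.042 and CYBA −0.10 and −0.10 in the total period, NOS3 0.057 and 0.060 in the first, and CYBB −0.0283 and −0.0281 in the second. Quantile normalization gave NOS3 0.058 and CYBA −0.12, and cyclic loess DUOX1 −0.017, CYBA −0.14 and NOX1 −0.21. By slide, NOS3 was 0.13 (random block), 0.87 (fixed block) and 0.48 (within slide 2), and CYBA −0.18 (fixed block) and −0.11 (within slide 2). Without 1 animal, DUOX1 ran from −0.18 to 0.062 (second period) and −0.032 to 0.11 (total), NOS3 from −0.10 to 0.13 (first) and −0.16 to 0.042 (second), CYBA from −0.19 to 0.010 (second) and −0.13 to 0.13 (total), and CYBB from −0.26 to 0.081 (total). The causes were not tested.

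The middle-stage arrays had the fewest probes well above background, which limits the precision of dim genes there. Slide as a fixed block was not run for the late stage, whose slides hold no other stage.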
